A study of Homo sapiens with 6 samples.

Results

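Matrix metalloproteinases (MMP), the membrane proteases called ADAM, the secreted ADAMTS proteases, the related ADAMTSL proteins and the tissue inhibitors of metalloproteinases (TIMP) were examined in MDA-MB-453 cells, an established human breast cancer cell line. The genes were taken by name from the deposited count table, and 55 of its 33451 genes belonged to these families, namely 16 MMP, 16 ADAM, 16 ADAMTS, 4 ADAMTSL and 3 TIMP genes. Other members of the families were not analysed here. The cells had been cultured for 5 days, in DMEM with foetal serum, either with 100 nM 25(OH)D, the circulating form of vitamin D, or with the alcohol solvent alone, and there were 3 mRNA libraries of each kind. The cells of both groups were of the same line and carried no introduced change. Nothing in the labels states whether the 3 libraries of a group came from separate cultures, although the study calls them biological replicates, so the p-values measure the spread between these libraries.

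MMPs cut collagens and other proteins of the extracellular matrix, and are either secreted or held at the cell surface as membrane-type enzymes. ADAMs are anchored in the membrane, and the active ones, such as ADAM10 and ADAM17, release growth factors, adhesion molecules and receptors from the cell surface, a step called shedding. ADAMTS enzymes are secreted and cut proteoglycans and other matrix proteins, ADAMTSL proteins resemble them but have no protease domain, and TIMPs block the active sites of MMPs and of some ADAM and ADAMTS enzymes.

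The libraries held between 33268860 and 40928176 counts, of which the 55 genes made up 0.0527% to 0.0536% in control and 0.0642% to 0.0659% in 25(OH)D. Of the 14 markers of luminal and apocrine breast cancer cells, all were expressed, whereas 16 of the 18 stromal, endothelial and blood cell markers in the table stayed under 1 CPM (counts scaled to the size of the library, with TMM factors) in every library. The exceptions were CD68 and COL1A1, and the summed level of that list was between 42.7 and 44.9 CPM in control and between 47.3 and 55.1 CPM in 25(OH)D. The cultures were of a single cell line, and the source of these marker reads was not tested. Among counts of 1 to 10 in the 55 genes, 88 of 103 values (85.4%) were even numbers, and over all genes 66.8% to 69.8% of such values were even in a library. How the mates of a read pair were counted is not given in the sources used here, so a count of 2 may stand for a single fragment.

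After 25(OH)D, 5 of the family genes rose and 2 fell. ADAMTSL3 rose by far the most, from near silence, followed by ADAM9, MMP24, ADAM15 and ADAM10, while ADAMTS1 and MMP16 fell. Of the 55 genes, 24 had enough counts to be tested and 31 did not. The test was the quasi-likelihood test of edgeR on the counts, with Benjamini-Hochberg adjustment over the 18183 genes tested and a threshold of 0.05. In the whole table, 17.3% of the genes tested were higher and 16.5% were lower at this threshold, so the share of called genes among the 24 (29.2%) was near that of all genes (33.8%). The median log2 fold change of the 24 genes was 0.070, with quartiles of -0.11 and 0.27, against -0.011 over all genes tested. Every called gene had at least 44 counts in each library, so none passed the low-count filter through 1 group only. In 9 of the 24 genes (37.5%) no control library overlapped the 25(OH)D libraries, against 45.7% of all genes tested. With the limits drawn in the study, an absolute log2 fold change over 1 with an unadjusted p under 0.05, only ADAMTSL3 and ADAMTS1 remained, where 4.02% of all genes tested were higher and 2.63% lower.

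**Figure D1:**
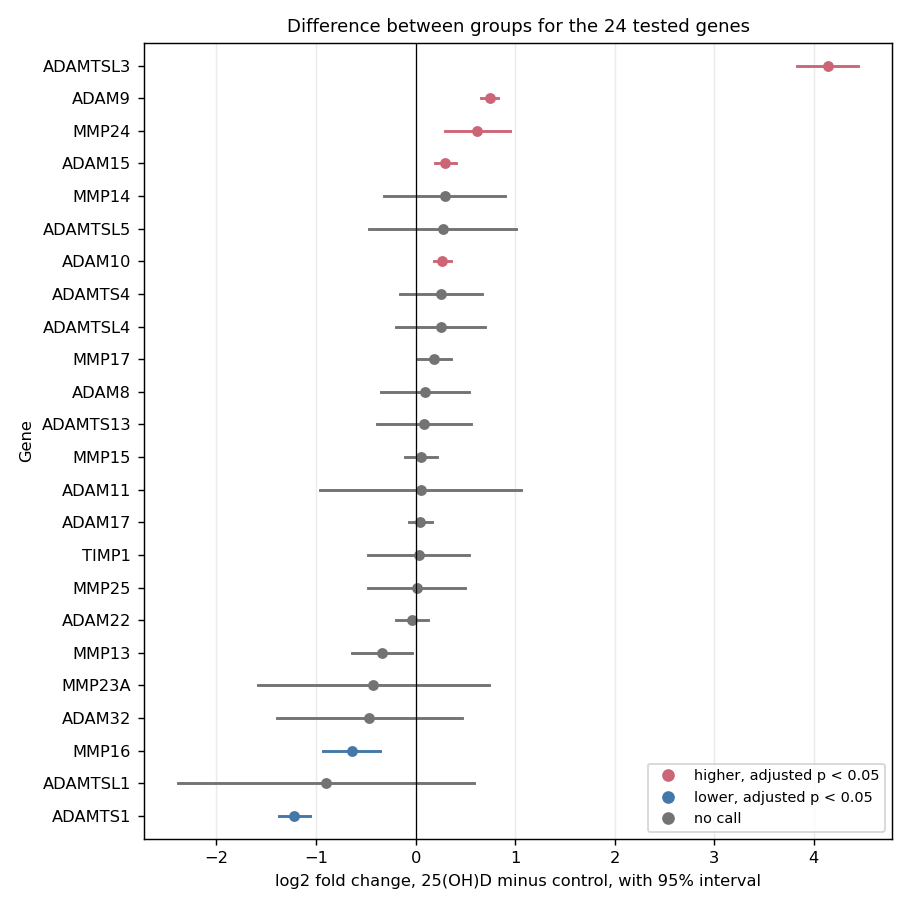
Log2 fold change of 25(OH)D against control (horizontal axis) for each of the 24 tested genes, with the 95% interval as a line; colour marks the genes with an adjusted p under 0.05. ADAMTSL3 lies alone at 4.14, most of the other intervals include 0, and ADAMTS1 is lowest at -1.22.

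ADAMTSL3 encodes a secreted glycoprotein of the matrix, also known as punctin-2, which has thrombospondin repeats and no protease domain. It lies on chromosome 15 of GRCh38 from 83654086 to 84039842 on the plus strand, with 35 merged exons in the table. The 3 control libraries held 46, 69 and 44 counts of ADAMTSL3, and the 3 libraries with 25(OH)D held 876, 867 and 821. In CPM these were 1.10, 1.82 and 1.20 in control against 24.9, 22.5 and 25.2 in 25(OH)D. All 25(OH)D libraries stood far above all control libraries, and the spread within each group was small beside that distance. The group means of ADAMTSL3 were 1.37 ± 0.392 CPM in control and 24.2 ± 1.45 CPM in 25(OH)D (SD, n = 3 each), 17.6-fold apart with a 95% interval of 14.3 to 21.8. On the log2 scale ADAMTSL3 rose by 4.14, with a standard error of 0.143 and an adjusted p of 2.25e-11 (edgeR). By size of rise, ADAMTSL3 ranked 74 among the 18183 genes tested. None of the other ADAMTSL genes passed the test, and ADAMTSL4 (2.26 ± 0.565 and 2.68 ± 0.152 CPM), ADAMTSL5 (0.804 ± 0.231 and 0.974 ± 0.299 CPM) and ADAMTSL1 (0.319 ± 0.224 and 0.162 ± 0.132 CPM; SD, n = 3 each, control first) all had overlapping libraries. Their adjusted p-values from edgeR were 0.397, 0.591 and 0.355, and the interval of ADAMTSL1 was wide, from -2.39 to 0.59 on the log2 scale. ADAMTSL4 shares 925 of its 6432 exon bases with genes on the opposite strand.

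The start region of ADAMTSL3, nearly silent in control, is set here beside that of ADAM10, which was abundant in every library, because the control levels of these genes that rose lay far apart, at 0.143 and 7.69 RPKM. Each sequence runs from 250 bases before to 50 bases after the gene start in RefSeq (GRCh38.p14), and capitals mark GC boxes (GGGCGG on either strand), the letters to which Sp1 binds. The first lies at chr15:83653873-83654172 on the plus strand and the second at chr15:58749658-58749957 on the minus strand.
ADAMTSL3: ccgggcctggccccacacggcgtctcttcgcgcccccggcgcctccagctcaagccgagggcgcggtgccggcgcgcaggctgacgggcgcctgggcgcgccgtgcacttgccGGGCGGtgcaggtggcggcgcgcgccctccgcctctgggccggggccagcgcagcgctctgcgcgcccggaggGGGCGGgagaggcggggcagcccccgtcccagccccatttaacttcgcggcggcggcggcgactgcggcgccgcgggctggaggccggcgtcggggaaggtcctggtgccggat
ADAM10: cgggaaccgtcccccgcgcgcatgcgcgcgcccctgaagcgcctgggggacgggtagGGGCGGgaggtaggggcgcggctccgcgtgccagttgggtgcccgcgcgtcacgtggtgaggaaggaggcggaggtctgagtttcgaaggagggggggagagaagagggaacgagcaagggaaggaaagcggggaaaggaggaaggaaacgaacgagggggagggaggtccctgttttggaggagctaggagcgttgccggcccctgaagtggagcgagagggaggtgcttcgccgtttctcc
The G and C content was 80.7% for ADAMTSL3 and 68.0% for ADAM10. A promoter sequence was found for 35 of the 55 genes (36 sequences), and 25 of the 36 (69.4%) held a GC box, as did 15786 of all 35116 promoters of the same length. Half-sites of the vitamin D receptor were searched on both strands, and none lay in either window. The half-site AGGTCA was found in 8.33% of the 36 family promoters and 13.8% of all promoters, AGTTCA in 8.33% and 10.4%, GGTTCA in 5.56% and 8.62%, and GGGTCA in 11.1% and 14.1%. A direct repeat of such half-sites with 3 bases between lay in 0 of the 36 and in 0.074% of all promoters.

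**Figure D2:**
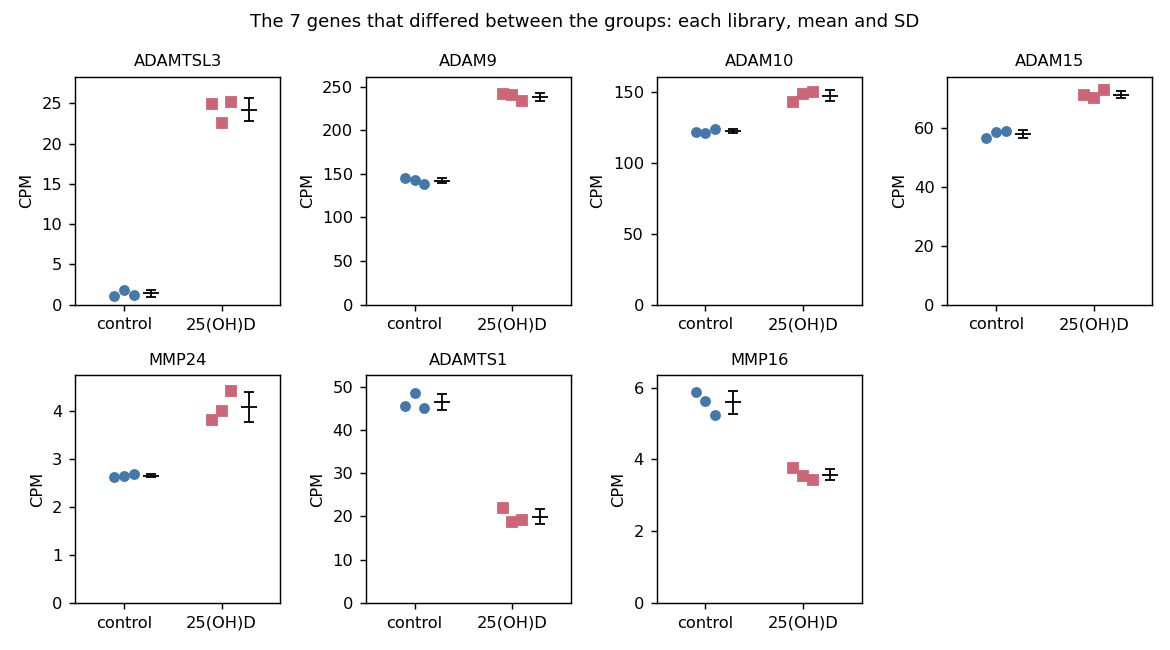
CPM (vertical axes from 0) of the 7 genes with an adjusted p under 0.05 in each of the 6 libraries, control as circles and 25(OH)D as squares, with the group mean and SD beside them. In each panel the 2 groups are apart; ADAMTSL3 goes from 1.37 to 24.2 CPM and ADAMTS1 from 46.5 to 19.99 CPM.

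ADAM9, ADAM15, ADAM10 and ADAM17 were the most abundant ADAM genes per length, and 3 of the 4 rose. Of the 8 tested ADAM genes, 3 were called, all higher (37.5%). Among all genes tested, 33.8% were called and 17.3% were higher. ADAM9 encodes a membrane protease and integrin ligand and was the most abundant of the 55 genes per length, at 20.9 ± 0.583 RPKM in control and 33.9 ± 0.824 RPKM in 25(OH)D (SD, n = 3 each; RPKM are counts scaled to gene length and library total). Its 3 control libraries had 145, 143 and 139 CPM, and its 3 libraries with 25(OH)D had 241, 241 and 233 CPM. The groups were well apart, and the rise was 1.68-fold (95% interval 1.58 to 1.78). ADAM9 lies on chromosome 8 from 38996869 to 39105144 on the plus strand. Of the summed RPKM of all 55 genes, ADAM9 took 27.7% ± 0.535 in control and 37.8% ± 0.234 in 25(OH)D (SD, n = 3 each).

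ADAM10, the sheddase of NOTCH receptors and of the amyloid precursor protein APP, had 122, 121 and 124 CPM in control and 143, 149 and 151 CPM in 25(OH)D. Each library with 25(OH)D was above each control library, and the difference was small, 1.20-fold with a 95% interval of 1.13 to 1.28 (log2 fold change 0.27, SE 0.0408, adjusted p = 1.38e-04, edgeR). ADAM10 lies on chromosome 15 from 58588807 to 58749978 on the minus strand. ADAM15, whose disintegrin domain binds integrins, had 56.6, 58.9 and 59.0 CPM in control and 71.2, 70.4 and 72.9 CPM in 25(OH)D, again without overlap. This was a 1.23-fold rise with a 95% interval of 1.14 to 1.32 (log2 fold change 0.30, SE 0.0481, adjusted p = 2.28e-04, edgeR). ADAM15 lies on chromosome 1 from 155050566 to 155062775, and 306 of its 6584 exon bases are shared with DCST1 on the same strand, a gene of 3.54 CPM in control.

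ADAM17, which releases tumour necrosis factor and most ligands of the EGF receptor, did not pass the test. Its libraries had 43.8, 41.7 and 43.9 CPM in control and 43.1, 46.0 and 44.7 CPM in 25(OH)D, so the groups overlapped (adjusted p = 0.551, edgeR). The 95% interval of its fold was 0.952 to 1.12. Of its 5491 exon bases, 1323 are shared with IAH1 on the opposite strand. At 7.97 ± 0.212 RPKM in control ADAM17 was close to ADAM10, at 7.69 ± 0.0653 RPKM (SD, n = 3 each), while in 25(OH)D ADAM10 was higher, at 8.98 ± 0.262 against 7.99 ± 0.301 RPKM. Whether the changes of these genes differ was not tested. The summed level of ADAM9, ADAM10, ADAM15 and ADAM17 was 45.5 ± 0.426 RPKM in control and 61.6 ± 0.880 RPKM in 25(OH)D (SD, n = 3 each), and the 15 ADAM genes other than ADAM9 summed to 27.4 ± 0.182 and 30.2 ± 0.779 RPKM.

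The other ADAM genes with a test were ADAM22, ADAM8, ADAM11 and ADAM32, and none passed. ADAM22 and ADAM11 are known from neurons and have no active protease site, yet ADAM22 had 23.3 ± 1.73 CPM in control and 22.7 ± 0.816 CPM in 25(OH)D (SD, n = 3 each; adjusted p = 0.742, edgeR), with a 95% interval of the fold of 0.873 to 1.09. ADAM8, an active protease known from leukocytes, had 2.50, 2.43 and 2.58 CPM in control and 1.91, 3.07 and 3.04 CPM in 25(OH)D, so that 1 library of the latter lay below all controls. ADAM32, which lies directly behind ADAM9 on chromosome 8 from 39106990 to 39284911, had between 11 and 40 counts per library, and its log2 fold change was -0.47 with an interval of -1.40 to 0.47. ADAM11 had 0.4997 ± 0.269 CPM in control and 0.518 ± 0.170 CPM in 25(OH)D (SD, n = 3 each).

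**Figure D3:**
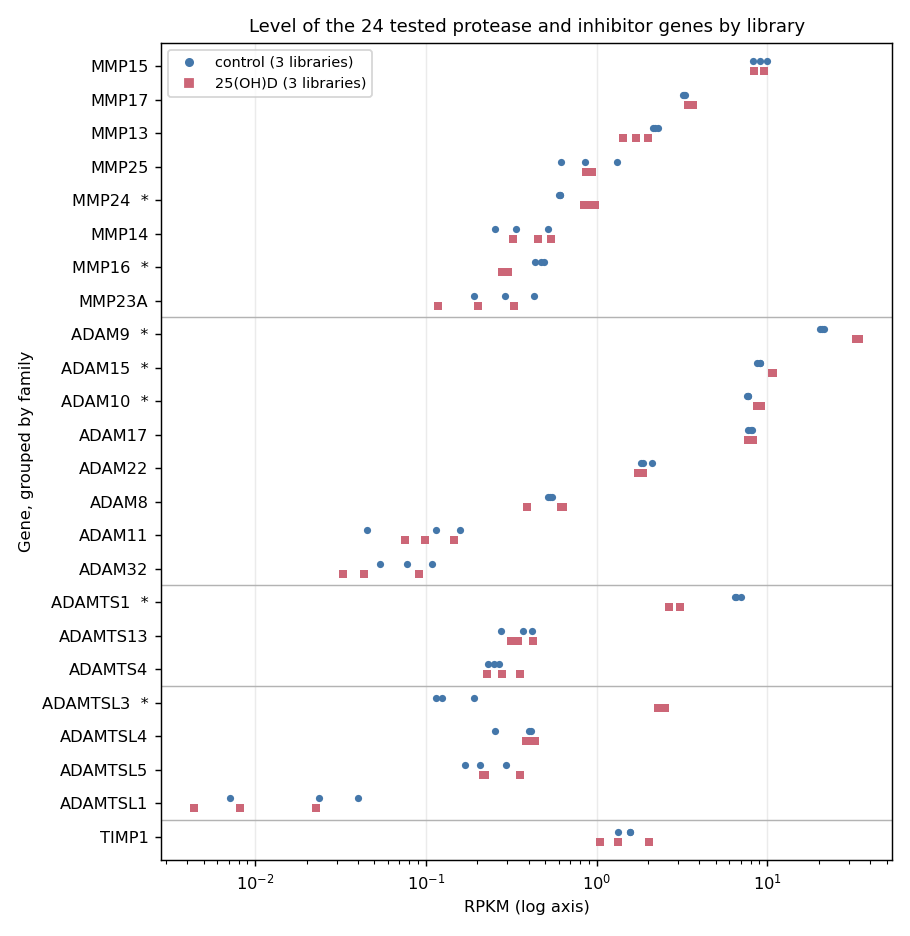
RPKM on a log axis for each of the 24 tested genes (rows, by family, with a star where the adjusted p is under 0.05) in the 3 control libraries (circles) and the 3 libraries with 25(OH)D (squares). ADAM9 is highest, and ADAMTSL3 moves from 0.143 to 2.44 RPKM.

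ADAMTS1, the first known member of its family, which cuts the proteoglycans versican and aggrecan, fell the most of the 24 genes. It had 45.7, 48.6 and 45.1 CPM in control and 22.1, 18.8 and 19.1 CPM in 25(OH)D, with the highest 25(OH)D library far below the lowest control. The group means of ADAMTS1 were 46.5 ± 1.87 and 19.99 ± 1.81 CPM (SD, n = 3 each), so the level was 2.32-fold lower with 25(OH)D (log2 fold change -1.22, SE 0.0722, adjusted p = 9.73e-09, edgeR). ADAMTS1 lies on chromosome 21 from 26835747 to 26845409 on the minus strand, with 10 merged exons and no exon bases shared with another gene of the table. It was the main ADAMTS gene of these cells, since the 16 ADAMTS genes together had 7.40 ± 0.344 RPKM in control and 3.57 ± 0.252 RPKM in 25(OH)D, of which ADAMTS1 alone gave 6.67 ± 0.289 and 2.78 ± 0.244 RPKM (SD, n = 3 each). ADAMTS4, another aggrecanase, had 2.54 ± 0.185 and 3.02 ± 0.652 CPM in control and 25(OH)D, and ADAMTS13, which cuts von Willebrand factor, had 1.99 ± 0.417 and 2.10 ± 0.310 CPM (SD, n = 3 each). The libraries of both genes overlapped between the groups, with adjusted p-values of 0.348 and 0.809 from edgeR. The remaining 13 ADAMTS genes did not reach the filter, and no library held more than 11 counts of any of them.

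The MMP genes of the table with enough counts for a test were mostly membrane-type enzymes. All 6 genes of that class (MMP14, MMP15, MMP16, MMP17, MMP24 and MMP25) passed the low-count filter, and among the other 10 MMP genes only MMP13 and the pseudogene MMP23A did. The class as a whole had 14.7 ± 0.534 RPKM in control and 15.3 ± 0.786 RPKM in 25(OH)D (SD, n = 3 each), with overlapping libraries. Of its 6 genes 1 rose and 1 fell, where 17.3% of all genes tested were higher and 16.5% lower. MMP24, known from the nervous system, had 2.62, 2.64 and 2.69 CPM in control and 3.81, 4.01 and 4.42 CPM in 25(OH)D. The groups did not overlap, and the rise was 1.54-fold with a 95% interval of 1.22 to 1.93 (log2 fold change 0.62, SE 0.153, adjusted p = 0.00589, edgeR). MMP24 (chromosome 20, 35226654 to 35277000, plus strand) shares 961 of its 4414 exon bases with MMP24-AS1 and 1 other gene on the opposite strand. MMP24-AS1 was more abundant than MMP24 and rose with it, from 10.6 to 15.3 CPM (log2 fold change 0.53, SE 0.126, adjusted p = 0.00430, edgeR). The kit was stranded, but whether the counting used the strand is not given in the sources used here, so reads of MMP24 and its antisense partner may not be separate.

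MMP16, a membrane-type enzyme that activates MMP2, had 5.88, 5.63 and 5.24 CPM in control and 3.75, 3.54 and 3.44 CPM in 25(OH)D. All 25(OH)D libraries were below all control libraries, and MMP16 changed by -0.64 on the log2 scale (SE 0.132, adjusted p = 0.00158, edgeR), a 1.56-fold lower level. It lies on chromosome 8 from 88032009 to 88328025 on the minus strand. MMP15, the most abundant MMP gene at 9.08 ± 0.885 RPKM in control and 9.15 ± 0.687 RPKM in 25(OH)D (SD, n = 3 each), had a 95% interval of the fold of 0.929 to 1.16. MMP17, which is held to the membrane by a lipid anchor, had 12.9, 12.7 and 12.8 CPM in control and 14.0, 14.9 and 14.7 CPM in 25(OH)D. Its groups did not overlap, but it missed the threshold with a log2 fold change of 0.18 (interval 0.01 to 0.35, adjusted p = 0.0931, edgeR).

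MMP14, the best known membrane-type enzyme and an activator of MMP2, was low, with 1.49, 1.11 and 2.31 CPM in control and 2.08, 2.42 and 1.47 CPM in 25(OH)D. The spread within its groups covered the difference between them (adjusted p = 0.469, edgeR). MMP25 also overlapped, and its control libraries ranged from 2.50 to 5.40 CPM around the 3.81 ± 0.141 CPM of 25(OH)D (SD, n = 3). MMP25 shares 1354 exon bases with MMP25-AS1 on the opposite strand. MMP13, a secreted collagenase, was the single soluble MMP of the table with more than a trace of reads. It had 6.41, 6.13 and 6.03 CPM in control and 4.95, 4.06 and 5.77 CPM in 25(OH)D, which did not overlap, and it missed the threshold at -0.33 on the log2 scale (SE 0.140, adjusted p = 0.0829, edgeR). Without 25(OH)D replicate 3 the adjusted p of MMP13 was 0.0300 with a log2 fold change of -0.45, and with library sizes alone it was 0.0479. Without 25(OH)D replicate 2 the log2 fold change of MMP13 was -0.20 with an adjusted p of 0.321, and DESeq2 gave an adjusted p of 0.182.

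Classical secreted MMPs in the table, MMP13 aside, were at or near the limit of detection. The gelatinase MMP9 had 2 counts in 1 control library and 0 in the other 5, matrilysin (MMP7) and neutrophil collagenase (MMP8) likewise had 2 counts in a single library, and the gelatinase MMP2 had 0, 2 and 0 counts in control and 14, 2 and 4 in 25(OH)D. A count of 0 in a library allows a level of up to 3 counts, which was worth between 0.0720 and 0.0921 CPM, and covers counting error only. If a count of 2 stands for a single fragment, this limit is too low. Over all 31 genes without a test, the highest count in any library was 14, and 12 genes had at most 3 counts in every library. Examples, chosen after their values were seen, were MMP23B (2, 3 and 4 counts in control, 12, 6 and 4 in 25(OH)D), ADAMTS3 (0, 0 and 2 against 7, 4 and 2) and MMP28 (6, 3 and 6 against 1, 2 and 0), and counts of this size give no reliable difference. MMP23A is annotated as a pseudogene, and 100.0% of its 100-base transcript stretches also occur in MMP23B, so the values of both are uncertain.

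TIMP transcripts were few. TIMP1 alone passed the filter, with 2.02, 2.38 and 2.39 CPM in control and 3.19, 2.08 and 1.66 CPM in 25(OH)D, so that the 25(OH)D libraries lay on both sides of the control (adjusted p = 0.933, edgeR). The 95% interval of its fold ran from 0.720 to 1.45. TIMP2 had 6, 4 and 2 counts in control and 0, 7 and 4 in 25(OH)D. TIMP3, the inhibitor with the widest reach over ADAM and ADAMTS enzymes, had 2, 0 and 0 counts in control and 0, 2 and 10 in 25(OH)D. The summed level of the TIMP genes was 1.51 ± 0.124 RPKM in control and 1.52 ± 0.459 RPKM in 25(OH)D, against 17.4 ± 0.498 and 17.4 ± 0.687 RPKM for the 16 MMP genes (SD, n = 3 each). Among other inhibitors, 3 of the 8 in the table were tested and none passed, of which PAPLN had the smallest unadjusted p (0.0296, edgeR). PAPLN, which encodes papilin, had 0.527 ± 0.169 CPM in control and 0.954 ± 0.0972 CPM in 25(OH)D (SD, n = 3 each; adjusted p = 0.0781 with edgeR and 0.173 with DESeq2).

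**Figure D4:**
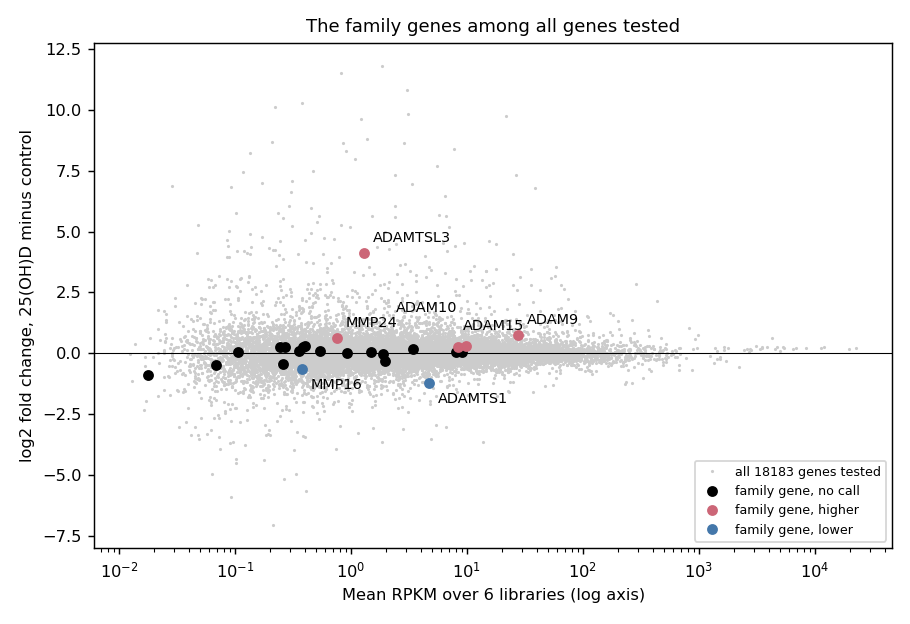
Mean RPKM over the 6 libraries (log axis) against the log2 fold change for all 18183 genes tested (grey) and the 24 family genes (large points, coloured where the adjusted p is under 0.05). ADAMTSL3 is the highest family gene at 4.14, ADAMTS1 the lowest of the called ones at -1.22, and grey points reach beyond both.

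The partners that carry ADAM10 and ADAM17 to the cell surface moved in both directions. Of 12 such genes 11 were tested, and 4 rose and 3 fell (63.6% called, against 33.8% of all genes tested), with a median log2 fold change of 0.16. All lists of related genes here were chosen with earlier results of these data known, so their shares called are description only. Tetraspanins of the TspanC8 group bind ADAM10 and set which proteins it cuts. Among them TSPAN14 had 20.2, 23.5 and 20.02 CPM in control and 29.3, 32.8 and 26.8 CPM in 25(OH)D, a rise of 0.48 on the log2 scale (SE 0.0871, adjusted p = 5.99e-04, edgeR). TSPAN15, the most abundant of the group at 25.2 ± 0.436 RPKM in control (SD, n = 3), went the other way, from 66.7, 65.0 and 65.1 CPM to 45.004, 48.6 and 55.9 CPM, a change of -0.40 on the log2 scale (SE 0.0689, adjusted p = 4.22e-04, edgeR). In both genes the groups did not overlap. TSPAN33 also fell (log2 fold change -0.81, adjusted p = 0.0186, edgeR), from 2.16 ± 0.191 to 1.23 ± 0.340 CPM (SD, n = 3 each). TSPAN5 and TSPAN17 did not pass, with 9.19 ± 2.65 and 12.1 ± 3.72 CPM for TSPAN5 and 22.1 ± 0.825 and 20.7 ± 1.51 CPM for TSPAN17 (SD, n = 3 each, control first).

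The iRhom proteins, inactive relatives of rhomboid proteases, bring ADAM17 to the surface. RHBDF1, which encodes iRhom1, rose from 20.6 ± 2.91 to 28.4 ± 3.44 CPM, while RHBDF2, which encodes iRhom2, fell from 14.4 ± 0.796 to 11.5 ± 1.46 CPM (SD, n = 3 each). Their log2 fold changes were 0.47 (adjusted p = 0.00335) and -0.32 (adjusted p = 0.0242) in the edgeR test. FRMD8, which stabilises the complex of iRhom and ADAM17, rose from 7.29 ± 0.485 to 10.1 ± 0.581 CPM (SD, n = 3 each; log2 fold change 0.47, adjusted p = 0.00241, edgeR).

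**Figure D5:**
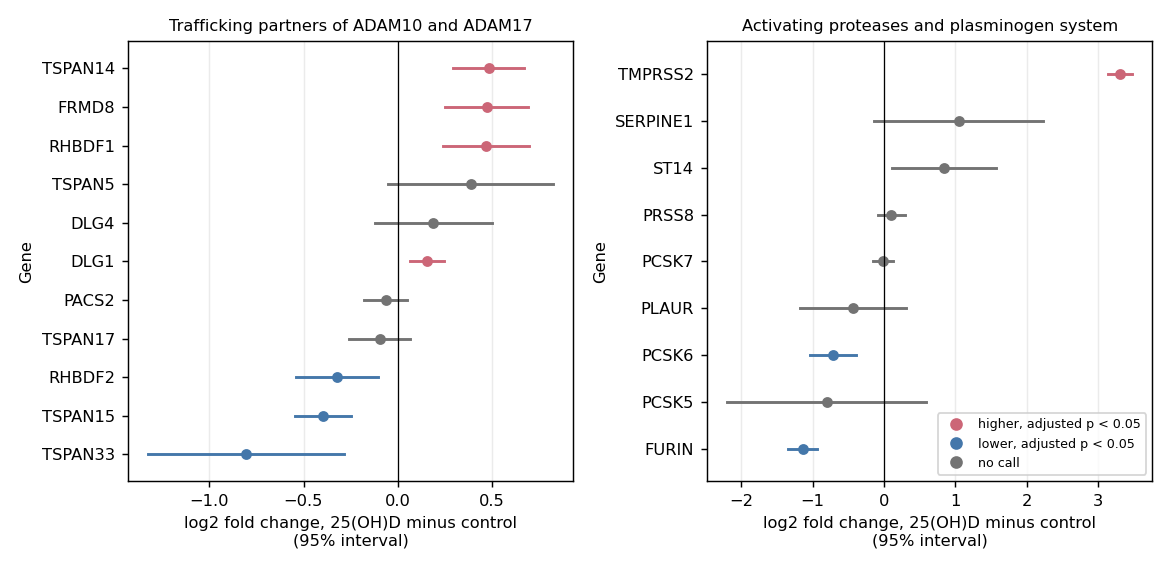
Log2 fold change with its 95% interval for the tested partners of ADAM10 and ADAM17 (left). The right side shows the tested genes listed as activating proteases or plasminogen system, with colours as for the family genes. TSPAN14 and TSPAN15 lie on opposite sides of 0, as do TMPRSS2 at 3.30 and FURIN at -1.14.

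Most of these proteases are made as inactive proenzymes, and convertases such as furin remove the inhibitory part. Of 14 genes listed as activating proteases or plasminogen system, 9 were tested, of which 1 rose and 2 fell. The share called was 33.3%, no more than the 33.8% of all genes tested, with a median log2 fold change of -0.011. Whether each listed protease acts on these proenzymes was not tested. FURIN had 13.9, 15.3 and 13.3 CPM in control and 6.57, 6.40 and 6.32 CPM in 25(OH)D, a fall without overlap (log2 fold change -1.14, SE 0.0960, adjusted p = 4.14e-07, edgeR). The related convertase PCSK6 fell from 7.74 ± 0.664 to 4.72 ± 1.003 CPM (SD, n = 3 each; adjusted p = 0.00199, edgeR), and PCSK7 had 47.1 ± 3.02 and 46.8 ± 2.78 CPM (SD, n = 3 each), with an adjusted p of 0.92003. TMPRSS2, a serine protease of the cell surface, rose from 6.46, 7.72 and 7.90 CPM to 75.6, 72.9 and 69.1 CPM (log2 fold change 3.30, SE 0.0794, adjusted p = 5.13e-13, edgeR). ST14, which encodes matriptase, did not pass (adjusted p = 0.0735, edgeR), and its mean in 25(OH)D rested on replicate 3, with 235 CPM against 76.6 and 77.6 CPM in the other libraries and 99.4, 56.3 and 61.4 CPM in control. PLAU and PLAT, the plasminogen activators, did not reach the low-count filter.

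Of the 7 astacin proteases and helpers in the table, 2 were tested and both rose, where 17.3% of all genes tested were higher. BMP1, which removes the C-terminal propeptide of fibrillar procollagens, had 4.18, 5.08 and 4.45 CPM in control and 11.1, 10.9 and 12.8 CPM in 25(OH)D, all apart (log2 fold change 1.34, SE 0.117, adjusted p = 5.52e-07, edgeR). PCOLCE, which enhances BMP1 and carries a domain related to that of the TIMPs, rose from 1.57 ± 0.352 to 4.56 ± 0.662 CPM (SD, n = 3 each; log2 fold change 1.53, adjusted p = 3.46e-05, edgeR).

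Among matrix proteins that ADAMTS and ADAMTSL proteins cut or bind, 14 of the 22 in the table were tested, and 3 rose and 7 fell (71.4% called, against 33.8% of all genes tested), with a median log2 fold change of -0.23. That list, too, was chosen with earlier results known, and whether its share differs from that of all genes was not tested. Versican (VCAN), the substrate of ADAMTS1, fell from 10.95, 9.70 and 10.2 CPM to 4.27, 4.32 and 4.17 CPM (log2 fold change -1.27, SE 0.110, adjusted p = 5.09e-07, edgeR). FBLN1, which encodes fibulin-1, a cofactor of ADAMTS1, fell from 4.403 ± 0.803 to 1.74 ± 0.242 CPM (SD, n = 3 each; adjusted p = 7.46e-05, edgeR). THBS1, an abundant matrix protein, had the smallest p of those that fell in this list (log2 fold change -0.75, adjusted p = 2.12e-10, edgeR). The small proteoglycan biglycan (BGN) rose from 0.336, 0.238 and 0.489 CPM to 30.9, 35.3 and 29.3 CPM (log2 fold change 6.48, SE 0.159, adjusted p = 6.32e-13, edgeR). COL1A1 had a log2 fold change of -0.18 with an adjusted p of 0.0320 from edgeR, and it did not pass with DESeq2, where the adjusted p was 0.0609.

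Of the 49 genes in the table for membrane proteins shed by ADAM10 or ADAM17, 33 were tested, and 13 rose and 8 fell (63.6% called, against 33.8% of all genes tested), with a median log2 fold change of 0.25. Earlier results were likewise known when this list was chosen. AREG, which encodes the EGF receptor ligand amphiregulin, had the smallest p of those that rose, going from 3.89, 5.08 and 5.00 CPM to 84.4, 75.4 and 76.0 CPM (log2 fold change 4.08, SE 0.0929, adjusted p = 3.27e-13, edgeR). NOTCH2, a substrate of ADAM10, rose from 54.9 ± 3.75 to 98.1 ± 5.47 CPM, and CDH2, the gene of N-cadherin, fell from 8.60 ± 0.597 to 3.03 ± 0.186 CPM (SD, n = 3 each). Their log2 fold changes were 0.84 (adjusted p = 7.30e-08) and -1.50 (adjusted p = 3.74e-07) in the edgeR test. The other NOTCH receptors did not follow NOTCH2, since NOTCH3 fell (log2 fold change -0.39, adjusted p = 2.09e-04, edgeR), NOTCH1 did not pass (-0.05 on the log2 scale, adjusted p = 0.704), and NOTCH4 was too low to test. DLL1, which encodes a NOTCH ligand, also fell (log2 fold change -0.70, adjusted p = 7.82e-04, edgeR). TNF, the eponymous substrate of ADAM17, had 5 counts in a single 25(OH)D library, 0 in the other 5, and was not tested.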

How the data were processed

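MDA-MB-453 libraries (3 control, 3 with 25(OH)D) were grouped from the sample titles. The authors deposited counts per gene without normalization and RPKM values, which equal count over gene length and library total (largest relative difference 5.1e-15). The submitters' processing notes name Trimmomatic 0.36, featureCounts, Subread 1.5.1, edgeR 3.12.1 and GRCh38, and the aligner and annotation release are not given in the sources used here. The exon positions of all 55 genes overlap those of GENCODE 29.

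The tests were run on the counts with edgeR 4.0.16 under R 4.3.3, using TMM, the low-count filter of the package (minimum count 10) and the quasi-likelihood test without covariates, checked on simulated data. Intervals of the fold (95%) use its standard errors. The alternatives were RLE factors, library sizes alone, no filter, DESeq2 1.42.0, the replicate number as a block, limma 3.58.1 on log2(RPKM + 1) and log2(RPKM + 0.1), each library left out, and the limits of the study. Each replicate pair of a group differed by more than sampling noise (chi-square per gene 4.01 to 12.1). Depth, 33268860 to 40928176 counts, limits values near 3 counts. Python 3.11.15, pandas 2.3.3 and matplotlib 3.10.9 served for the rest.

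The family genes and related lists were chosen with earlier results of these data known. The rule for named genes took every called family gene, every TIMP gene, the 12 with the highest mean RPKM, genes with at most 3 counts on average in 1 group and at least 10 in the other (there were 0), and in each list the smallest p in each direction. Other genes were named after their values were seen. Protein sequences were not analysed here. Single values of 3 libraries against 3 cannot reach a two-sided exact permutation p under 0.1.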

Additional observations from a re-analysis of the deposited data

How the results depend on the processing

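The 7 called genes were called in the same direction under every alternative that kept the adjusted p threshold (7 of 7 shared each time), with 5 genes higher throughout and 2 lower, or 3 with MMP13 under library sizes alone and without 25(OH)D replicate 3 (leaving out each library gave 5 to 5 higher and 2 to 3 lower). The limits of the study gave 1 higher and 1 lower. Without genes that share exon bases on the same strand, a setting added after the data were seen, 4 were higher and 2 lower, ADAM15 being left out. Of 182 refits of named family genes, 169 kept their direction and side of the threshold, and those that turned sign were values near 0. TIMP1 was -0.011 with library sizes alone, -0.027 with log2(RPKM + 1) and -0.058 with log2(RPKM + 0.1), and -0.26 to 0.23 with a library left out. MMP25 was -0.032 with library sizes alone, -0.0025 with log2(RPKM + 1) and -0.22 to 0.36 with a library left out, and ADAM22 was -0.066 to 0.031. Among named related genes, COL1A1 lost its call in 8 refits, and the cause was not tested. The remaining 200 refits of those genes kept direction and side of the threshold. Library sizes alone moved the median log2 fold change of all genes by -0.044.

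The replicate block gave 5 family genes higher and 2 lower, and 5953 calls among all genes against 6142. Libraries with the same number did not deviate together (correlations -0.118, 0.00725 and -0.0772), so the numbers were not taken as pairs.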

Other observations

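Among regulators of MMP genes, 8 of 15 tested were higher and 1 lower (60% called, against 33.8% of all genes tested), with a median log2 fold change of 0.24 against -0.011 over all genes tested. Like the other lists, these regulators were chosen with earlier results known, so the share is description only. Components of AP-1, the transcription factor known to drive several MMP genes, were among those that rose. JUNB rose from 45.2 ± 1.13 to 78.0 ± 0.984 CPM, JUN from 31.8 ± 1.67 to 52.9 ± 1.04 CPM and FOS from 0.626 ± 0.275 to 2.38 ± 0.183 CPM (SD, n = 3 each), with adjusted p-values of 1.57e-08, 2.35e-07 and 1.83e-04 in the edgeR test. ETS2, another factor of MMP promoters, rose from 4.70 ± 1.16 to 20.8 ± 2.42 CPM (SD, n = 3 each; adjusted p = 3.42e-08, edgeR), while ETV5 fell (log2 fold change -0.69, adjusted p = 0.00871). The letters of the AP-1 site (TGANTCA) lay in 5.56% of the 36 family promoters and in 7.71% of all promoters of the same length.

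Genes around the called ones were examined after the values were seen. Of the 7 other tested genes assigned within 500 kb of ADAMTSL3, none was called higher and 2 were lower in the edgeR test. Several, such as SCARNA15 and the GOLGA genes, have near copies and uncertain counts. SCARNA15 was also assigned to ADAM10, which lies far away on chromosome 15. Such small RNA names, SNORA24 among them, may therefore not be true neighbours. ADAMTS1 and MMP16 each had 1 other tested gene within that distance, and neither neighbour was called. Among the 4 tested neighbours of ADAM9, TM2D2 was higher (log2 fold change 0.22, adjusted p = 0.0376, edgeR) and the others, ADAM32 among them, were not called. Around the other genes that rose, 0 of 9 assigned neighbours of ADAM10 were higher and 4 lower, and 16 of 56 of ADAM15 were higher and 8 lower. For MMP24, 6 of 26 were higher and 5 lower, where 17.3% of all genes tested were higher and 16.5% lower. The higher ones include MMP24-AS1 and RP4-614O4.13, which share exon bases with MMP24 on the opposite strand. Their reads may not be separate from those of MMP24, so its count cannot be set plainly against these shares. The genes assigned to ADAM15 include small RNA names that can stand for many loci, such as Y_RNA, U3, U4 and snoU13. Of these, snoU13 is among the higher ones. The counts for ADAM15 and ADAM10 are therefore not exact and cannot be set against the shares of all genes.

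Among markers, the macrophage and lysosome gene CD68 rose from 4.93 ± 0.821 to 15.9 ± 3.18 CPM (SD, n = 3 each; adjusted p = 8.16e-07, edgeR), while other blood cell markers stayed under 1 CPM. Of the luminal and apocrine markers, DSP fell (log2 fold change -1.38, adjusted p = 8.27e-10, edgeR).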
